A study of Homo sapiens with 6 samples.

Results

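Contractile genes of the actomyosin cytoskeleton were followed in A549 cells, an established human line derived from a lung adenocarcinoma, with and without the MIR21 gene. The set holds 38 genes, picked by symbol as structural parts and regulators of actin and myosin filaments together with the serum response factor SRF, out of 58174 genes listed for the series. It is named for actomyosin genes and contractile genes driven by SRF. The choice of genes used no measured value, but it was made when earlier results of these data were known. All 38 were listed, and 36 were tested. ACTG2 and CNN1 stayed below the minimum mean of 0.5 FPKM that a gene needed for testing. FHL1 and FLNC reached that mean through 1 group only, namely Ctrl for FHL1 and MIR21-KO for FLNC.

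Parental A549 cells (Ctrl) were compared with A549 cells in which MIR21 had been deleted with CRISPR/Cas9 (MIR21-KO), with 3 polyA RNA-seq libraries per group and no further treatment in either group. Cells of both groups were harvested 48 h after seeding. MIR21-KO cells descended from single sorted cells, whereas Ctrl cells were the uncloned population. How many clones went into the MIR21-KO libraries is not given, so features of a clone and effects of the deletion cannot be told apart. The study describes its samples as independent and its experiments as biologically replicated, whereas the labels do not say what was separate between libraries of a group, whether cultures or clones. The p-values measure the spread between these libraries.

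In non-muscle cells, force comes from filaments of myosin II that pull on actin filaments bundled by crosslinkers, coated by tropomyosins and anchored at adhesion plaques. Phosphorylation of the regulatory light chains, for instance by myosin light chain kinase, switches the motor on. SRF binds an element called the CArG box in many genes of this machinery, and its coactivators of the MRTF family are held back by free actin monomers. In epithelial cells, a rise of contractile genes such as TAGLN and ACTA2 is widely used as a sign of a mesenchymal or myofibroblast-like programme.

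To show where SRF could meet these genes, RefSeq promoter windows (GRCh38.p14, 250 bases before to 50 bases after an annotated start) were searched for the CArG box, which reads CC, then 6 bases that are each A or T, then GG. The element is its own reverse complement, so 1 search covers both strands. At least 1 box stood in 13 of the 70 windows of the members (18.6%), compared with 1.29% of all 35116 windows. By gene, 11 of the 35 members with a window had a box. TAGLN, MYL9 and ACTB had no window. The boxes of 7 tested members are printed 5′ to 3′ on the strand of the gene, with the box in capitals, because these members include each tested one with a box that was called higher or lower as well as ACTG1, the most abundant one. SRF itself carried a pair of boxes, which begin 30 and 10 bases before its start.
SRF, distal box, chr6:43171229-43171258, plus strand: ctggggctcaCCATATAAGGagcggcctcg
SRF, proximal box, chr6:43171249-43171278, plus strand: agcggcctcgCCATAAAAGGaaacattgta
ACTG1, chr17:81512874-81512903, minus strand: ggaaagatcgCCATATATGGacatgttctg
CNN2, chr19:1026509-1026538, plus strand: cgcctccaggCCTTATAAGGacatttgcgc
TPM4, chr19:16067355-16067384, plus strand: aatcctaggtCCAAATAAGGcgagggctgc
ACTN1, chr14:68977718-68977747, minus strand: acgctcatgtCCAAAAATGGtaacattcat
FLNA, chrX:154374709-154374738, minus strand: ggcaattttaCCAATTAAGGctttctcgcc
FHL1, chrX:136196911-136196940, plus strand: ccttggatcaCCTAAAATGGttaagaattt

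The other route of interest was the miRNA itself. Mature miR-21-5p (chr17:59841273-59841294, plus strand) is printed with its seed, bases 2 to 8, in capitals. Below it stand the sites in the longest GENCODE 29 3′ UTRs of members that match the whole seed and continue with an A (8mer sites), and the single site of LIMA1 that matches the seed alone (7mer), the only member called higher that has one, with the match in capitals.
hsa-miR-21-5p: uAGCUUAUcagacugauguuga
PDLIM5, chr4:94665010-94665017, 8mer: cttccccacccaaaaATAAGCTAcc
VCL, chr10:74120077-74120084, 8mer: taaaaaactacatttATAAGCTAgg
CALD1, chr7:134970164-134970171, 8mer: aggcacaagtctacaATAAGCTAaa
LIMA1, chr12:50176368-50176374, 7mer: tctgctgtctcccaaATAAGCTtt

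Before the members, the targeted locus and the identity of the cells were checked. MIR21 was listed at 0 FPKM in each library, which checks nothing, because polyA libraries do not hold the mature miRNA. Its host gene VMP1 rose from 75.1 ± 3.83 to 142.5 ± 7.18 FPKM (SD, n = 3; limma FDR = 0.000473). Libraries held 10631667 to 14345209 reads, and Pearson correlations of log2 values across genes were 0.950 to 0.959 within Ctrl, 0.933 to 0.957 within MIR21-KO and 0.896 to 0.912 between groups. Keratins KRT7, KRT8, KRT18 and KRT19 were abundant, and the summed level of the 8 epithelial markers was 1700 to 1823 FPKM in Ctrl and 1224 to 1755 FPKM in MIR21-KO. Of these 8, 7 were tested, and CDH1 (8.18 to 2.86 FPKM) and ELF3 (15.6 to 8.10 FPKM) were called lower and none was called higher. Over all genes tested, 8.38% were called lower and 7.66% higher. KRT18 fell without overlap (673 ± 25.3 to 422 ± 82.2 FPKM) but was not called (limma FDR = 0.0153). KRT7 and KRT19 averaged higher in MIR21-KO (507 to 551 and 88.3 to 109 FPKM) and KRT8 lower (484 to 414 FPKM). For each of these the groups overlapped, and none was called. EPCAM averaged 1.19 FPKM in Ctrl and 0.695 FPKM in MIR21-KO and was not called. CLDN4, at 0.397 and 0.499 FPKM, was not tested. In contrast to the keratins, 6 of the 7 alveolar type II markers listed, surfactant genes among them, averaged under 1 FPKM in both groups, and only the lipid transporter ABCA3 reached 5 FPKM. Endothelial and leukocyte markers summed to at most 0.298 FPKM in any library.

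Upon MIR21 deletion, more members rose than fell. Limma called 15 of the 36 tested members higher and 3 lower in MIR21-KO cells at an FDR under 0.01, and 18 were not called. Among all 16006 genes tested, 7.66% were called higher and 8.38% lower. The median log2 fold change was 0.47 over the tested members and -0.02 over all genes tested, and 29 members were above 0. Values of both groups did not overlap for 31 members, 25 with MIR21-KO higher and 6 with MIR21-KO lower, where 22.8% and 25.2% of all genes tested separated in these directions. The members together took 2.93 to 2.95% of all reads in Ctrl and 3.68 to 3.84% in MIR21-KO libraries. In bulk RNA such as this, a change in the number of cells expressing a gene and a change of RNA per cell cannot be told apart.

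The counts changed when single libraries were left out and with the fit. Leaving out a library also leaves fewer libraries to test, and the part of this in a lost call was not tested. On the reads recovered from the FPKM values, limma-voom called 20 members higher and 4 lower, where 10.9% and 10.7% of all genes tested were called. Members called higher numbered 5, 7 and 5 without Ctrl replicate 1, 2 or 3, and 5 without MIR21-KO replicate 2. In the same fits, genes called higher fell from 1226 to 509, 522, 505 and 388 of the 16006 tested. Without MIR21-KO replicates 1 and 3, members called higher numbered 17 and 19 and all genes called higher 964 and 1599. Of the 18 calls, 7 held under every alternative in which the gene was tested, namely MYL9, TAGLN, CNN3, LIMA1, PDLIM7, FHL1 and PDLIM5. LIMA1 and FHL1 were not tested at a mean of at least 5 FPKM, and so went through 16 of the 17 alternatives. The other 11 were lost without Ctrl replicate 1, without Ctrl replicate 3 and without MIR21-KO replicate 2, and their highest FDR over all alternatives lay between 0.0164 for ZYX and 0.0579 for ACTN1. No called member changed its direction under any alternative tried.

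**Figure D1:**
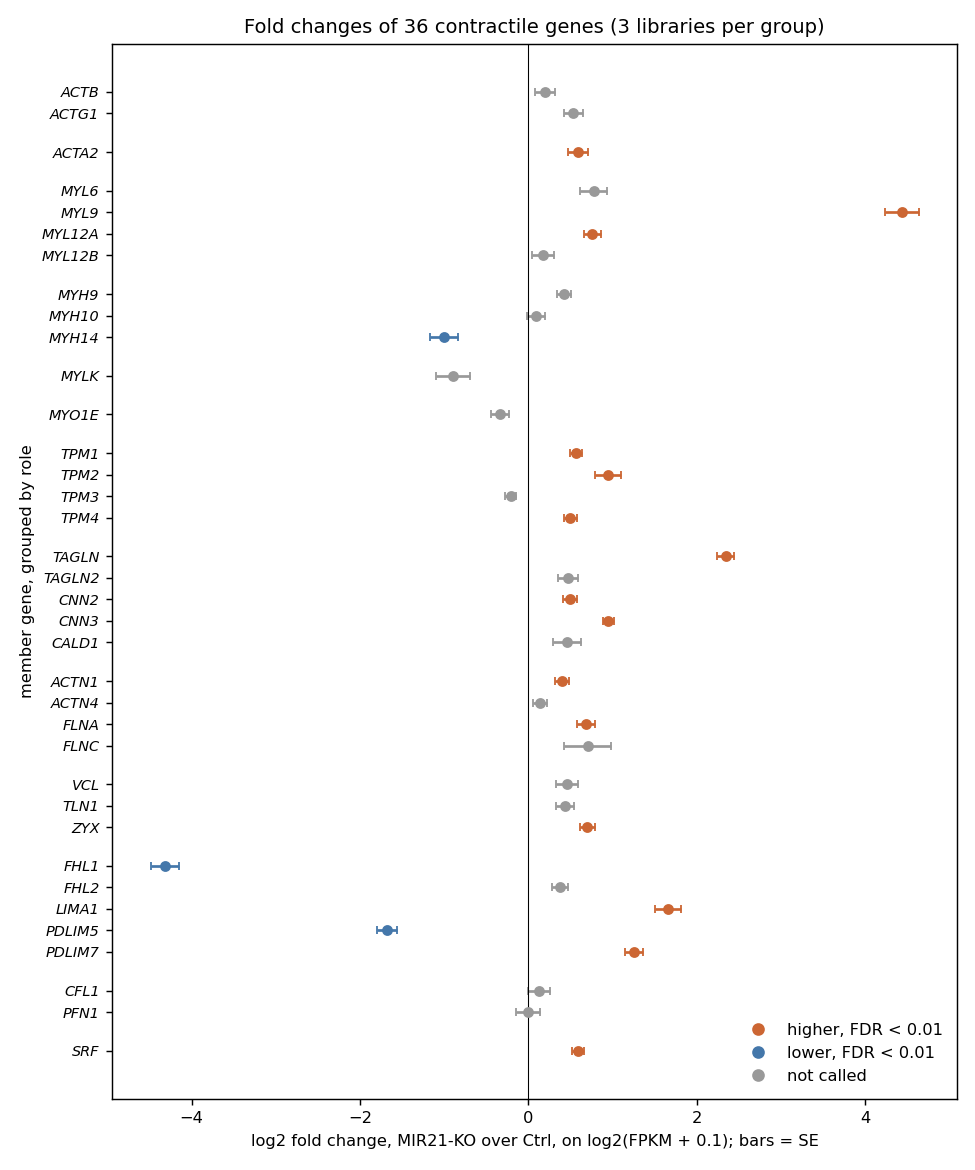
Log2 fold changes of the 36 tested members (x axis, MIR21-KO over Ctrl on log2(FPKM + 0.1), bars are SE, 3 libraries per group), grouped by role on the y axis and coloured by call. Points to the right are higher in MIR21-KO; MYL9 at 4.44 and FHL1 at -4.32 lie far outside the other members.

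Myosin light chains held the largest rise. MYL9 (ENSG00000101335, chromosome 20, 36541484 to 36551447, plus strand of GRCh38) encodes a regulatory light chain typical of smooth muscle. Its level was 0.501, 0.857 and 0.803 FPKM in Ctrl replicates 1 to 3 and 19.9, 16.9 and 15.6 FPKM in MIR21-KO replicates 1 to 3. Every MIR21-KO library was thus far above every Ctrl library, and the spread within a group was small beside this gap. Ctrl values rested on 18 to 31 reads and MIR21-KO values on 569 to 764 reads. The ratio of means was 24.2, with a log2 fold change of 4.44 ± 0.20 (SE) and an FDR of 5.6e-05 by limma. Unless another fit or setting is named, log2 fold changes are on the log2(FPKM + 0.1) scale, which understates the change of genes near 0.

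MYL12A and MYL12B encode the related regulatory light chains of non-muscle myosin. MYL12A was called higher (59.2 ± 2.44 to 100.9 ± 11.9 FPKM, log2 fold change 0.76, FDR = 0.00261 by limma). MYL12B had 117 ± 3.02 and 133 ± 22.4 FPKM and was not called, and its MIR21-KO replicate 3, at 109 FPKM, lay below all Ctrl libraries. MYL9 therefore supplied 0.289 to 0.469% of the summed FPKM of the 3 regulatory chains in Ctrl and 6.54 to 7.32% in MIR21-KO. These ranges do not overlap, but with 3 libraries per group the exact two-sided permutation test cannot go below its value here of p = 0.1. Despite its 24.2-fold rise, MYL9 remained a small part of the regulatory chain transcripts.

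MYL6, the essential light chain, had 135, 144 and 144 FPKM in Ctrl and 294, 251 and 191 FPKM in MIR21-KO. Groups did not overlap, although MIR21-KO replicate 1 was well above replicate 3. Limma placed it just outside the threshold (log2 fold change 0.78, FDR = 0.0114), whereas limma-voom called it higher (FDR = 0.00153).

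**Figure D2:**
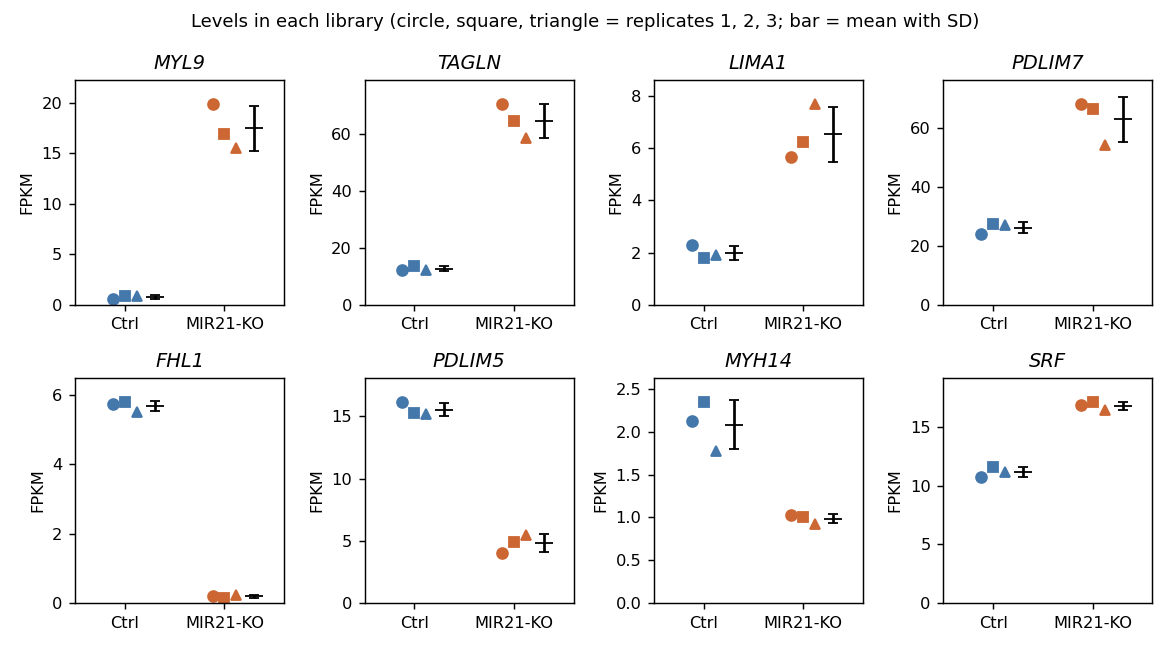
FPKM (y axis, linear, from 0) in each library for 8 members, Ctrl in blue and MIR21-KO in orange, with circles, squares and triangles for replicates 1, 2 and 3 and black bars for mean and SD (n = 3). Groups are separated in every panel, with MIR21-KO higher for MYL9, TAGLN, LIMA1, PDLIM7 and SRF and lower for FHL1, PDLIM5 and MYH14.

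Of the 3 heavy chains, none was called higher and 1 was called lower, where 7.66% and 8.38% of all genes tested were. MYH14, the heavy chain of the form called myosin IIC and most common in epithelia, had 2.13, 2.35 and 1.78 FPKM in Ctrl and 1.02, 1.01 and 0.926 FPKM in MIR21-KO. It fell without overlap (log2 fold change -1.002, FDR = 0.00477 by limma), a call lost when any Ctrl library or MIR21-KO replicate 1 or 2 was left out. MYH9, the main heavy chain in these cells, had 125 ± 3.31 FPKM in Ctrl and 168 ± 11.5 FPKM in MIR21-KO and missed the threshold (FDR = 0.0102 by limma, 0.00274 by limma-voom). MYH10 had 15.7 ± 1.08 and 16.8 ± 1.97 FPKM, with overlapping groups. MYLK encodes myosin light chain kinase, and its 3.42, 2.66 and 2.82 FPKM in Ctrl stood against 1.20, 1.55 and 1.97 FPKM in MIR21-KO. Its groups did not overlap, but limma did not call it (log2 fold change -0.89, FDR = 0.0169), whereas limma-voom called it lower (FDR = 0.00276). MYO1E, a membrane-linked myosin that does not form filaments, was not called (55.6 ± 4.82 and 44.0 ± 4.42 FPKM).

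Of the actins, the cytoplasmic pair was far more abundant than all other members and made up 51.9 to 52.9% of the members' summed FPKM in each library. ACTG1 had 1952, 1967 and 1959 FPKM in Ctrl and 3028, 2931 and 2574 FPKM in MIR21-KO, which did not overlap. It was not called by limma (log2 fold change 0.53, FDR = 0.0117) but was called higher by limma-voom (FDR = 0.000681). ACTB had 1790 ± 36.02 and 2063 ± 237 FPKM and was called by neither fit (limma FDR = 0.251). ACTG1 accounted for 51.9 to 52.7% of the pair in Ctrl and for 57.1 to 58.8% in MIR21-KO, a share looked at after the levels had been seen.

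ACTA2, smooth muscle alpha actin, had 10.2, 8.94 and 10.3 FPKM in Ctrl and 16.7, 14.9 and 13.1 FPKM in MIR21-KO. It was called higher with a log2 fold change of 0.59 (limma FDR = 0.00914), close to the threshold, and lost this call under 9 of 17 alternatives. Its exons overlap FAS on the opposite strand over 12.8% of their length and ACTA2-AS1 over 17.3%, and the strand setting of the counting is not given in the sources used here. FAS was at 8.08 FPKM in Ctrl and 8.04 FPKM in MIR21-KO. ACTG2, the enteric smooth muscle actin, had 0 to 2 reads per library, at or under the floor of 3 reads in both groups. Both smooth muscle actins together made up 0.235 to 0.275% of the transcripts of the 4 actins in Ctrl and 0.295 to 0.315% in MIR21-KO, so that the actin pool was cytoplasmic in either group.

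Of the 4 tropomyosins, 3 were called higher, where 7.66% of all genes tested were. TPM2 (beta tropomyosin, chromosome 9) had 103, 112 and 111 FPKM in Ctrl and 253, 219 and 167 FPKM in MIR21-KO. All MIR21-KO libraries were higher, with a wide spread among them, and the log2 fold change was 0.95 (FDR = 0.00503 by limma). TPM4 rose by a log2 fold change of 0.50 (103.8 ± 3.33 to 146.8 ± 4.17 FPKM, limma FDR = 0.00327). TPM3 had 62.8, 64.9 and 61.8 FPKM in Ctrl and 55.4, 53.7 and 54.4 FPKM in MIR21-KO. Its groups did not overlap, but the difference was not called (log2 fold change -0.21, FDR = 0.0476).

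TPM1 (ENSG00000140416, chromosome 15) is known as a reported target of miR-21 and encodes alpha tropomyosin. Its level was 83.9, 81.5 and 83.4 FPKM in Ctrl and 116, 127 and 126 FPKM in MIR21-KO. It rose in all MIR21-KO libraries, with a log2 fold change of 0.57 ± 0.07 (SE) and an FDR of 0.00216 by limma. The longest annotated 3′ UTR of TPM1, 3493 bases long, holds no match to the whole seed, and none was found in any of its 16 transcripts with an annotated 3′ UTR. A shorter match of 6 bases occurred in 6 of these transcripts. In 5 of them it was followed by an A, which makes a site of the class called 7mer-A1. Such sites are not part of the counts of whole-seed matches given here. Genes on the opposite strand overlap 16.1% (TPM1-AS) and 5.37% (AC079328.2) of its exons and had 1.15 and 31.9 FPKM in Ctrl.

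Relative to the 4 tropomyosins combined, TPM2 supplied 28.8 to 31.1% in Ctrl and 33.7 to 44.6% in MIR21-KO, while TPM3 supplied 17.3 to 17.9% and 9.77 to 11.0%. Neither pair of ranges overlapped, and both reached p = 0.1, the smallest value the exact permutation test allows. TPM1, at 23.1% and 23.0%, did not differ beyond the spread (exact permutation p = 0.9). Nor did TPM4, at 28.9% and 27.4% (exact permutation p = 0.4).

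**Figure D3:**
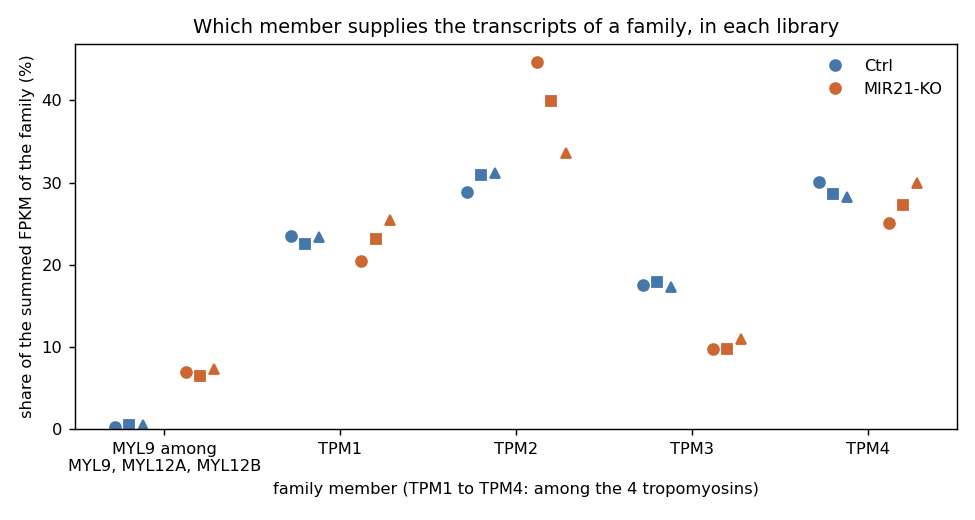
Share of a family's summed FPKM (y axis, percent, from 0) supplied by MYL9 among 3 regulatory light chains and by each of the 4 tropomyosins, in each library (Ctrl blue, MIR21-KO orange; circle, square and triangle for replicates 1, 2 and 3). MYL9 and TPM2 take larger and TPM3 smaller shares in all MIR21-KO libraries, whereas TPM1 and TPM4 overlap.

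Transgelins, calponins and caldesmon bind along actin filaments and are best known from smooth muscle. TAGLN (ENSG00000149591, chromosome 11), a classical marker of contractile cells, had 12.03, 13.7 and 12.2 FPKM in Ctrl and 70.8, 64.7 and 58.8 FPKM in MIR21-KO. Its rise was 5.11-fold, without overlap, and had a log2 fold change of 2.34 ± 0.10 (SE, limma FDR = 4.2e-05). The paralogue TAGLN2, which is common in non-muscle cells, stayed the more abundant one (329 ± 9.39 and 458 ± 59.9 FPKM) and was not called (limma FDR = 0.0227, limma-voom FDR = 0.00381).

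CNN3, the acidic calponin, had 40.7, 42.4 and 40.0 FPKM in Ctrl and 79.6, 80.5 and 78.2 FPKM in MIR21-KO. Replicates lay close together within each group, and the log2 fold change was 0.95 (limma FDR = 0.000206). CNN2 rose less, from 53.4 ± 0.761 to 75.7 ± 5.88 FPKM (log2 fold change 0.50, limma FDR = 0.00488). CNN1, the smooth muscle calponin, had 5, 1 and 3 reads in Ctrl and 17, 21 and 12 reads in MIR21-KO. Without the minimum level its FDR was 0.0322 by limma, so it was not called there either. CALD1 had 24.5 ± 2.28 and 34.2 ± 7.48 FPKM and was not called (FDR = 0.0739).

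Of the 7 tested crosslinkers and adhesion plaque proteins, 3 were called higher and none lower, where 7.66% and 8.38% of all genes tested were. FLNA, a filamin that joins actin filaments into networks, had 276, 240 and 251 FPKM in Ctrl and 375, 416 and 443 FPKM in MIR21-KO. This corresponded to a log2 fold change of 0.69 (limma FDR = 0.00364). ACTN1, a crosslinker of stress fibres, was called higher close to the threshold (47.4 ± 2.02 to 62.6 ± 3.80 FPKM, limma FDR = 0.00949) and lost the call under 10 of 17 alternatives. ACTN4 had 357 ± 9.40 and 392 ± 14.4 FPKM and was not called. FLNC, the muscle filamin, remained below 1 FPKM in every library.

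ZYX, which encodes the tension-responsive adhesion protein zyxin, had 54.5, 60.9 and 55.5 FPKM in Ctrl and 97.2, 96.7 and 84.4 FPKM in MIR21-KO. The groups were well apart, and ZYX was called higher (log2 fold change 0.70, limma FDR = 0.00202). VCL (vinculin) and TLN1 (talin) link integrins to actin. VCL had 36.7 ± 1.94 and 50.9 ± 8.85 FPKM (FDR = 0.04 by limma), TLN1 30.7 ± 2.45 and 41.7 ± 4.66 FPKM (FDR = 0.0222 by limma, 0.0082 by limma-voom), and limma called neither.

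Of the 5 LIM domain proteins, which dock on actin filaments, 2 were called higher and 2 lower. Over all genes tested, 7.66% and 8.38% were called in these directions. LIMA1, which crosslinks filaments and slows their disassembly, had 2.30, 1.78 and 1.90 FPKM in Ctrl and 5.67, 6.23 and 7.71 FPKM in MIR21-KO. PDLIM7 had 24.2, 27.4 and 27.1 FPKM in Ctrl and 68.4, 66.5 and 54.2 FPKM in MIR21-KO. Both were higher without overlap, LIMA1 3.28-fold and PDLIM7 2.40-fold (limma FDR = 0.000655 and 0.000508).

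The opposite was seen for FHL1 and PDLIM5. FHL1 (ENSG00000022267, chromosome X), a LIM protein abundant in muscle, had 5.75, 5.80 and 5.51 FPKM in Ctrl and 0.208, 0.150 and 0.219 FPKM in MIR21-KO. Reads per library dropped from at least 374 to at most 17, and the log2 fold change was -4.32 ± 0.17 (SE, limma FDR = 3.7e-05). FHL1 was thus nearly lost in MIR21-KO cells. As stated at the start, FHL1 reached the minimum mean for testing through Ctrl only. PDLIM5 (ENSG00000163110, chromosome 4), a relative of PDLIM7, had 16.1, 15.3 and 15.2 FPKM in Ctrl and 4.05, 4.89 and 5.50 FPKM in MIR21-KO. All MIR21-KO libraries were lower, with a log2 fold change of -1.68 (limma FDR = 0.000243). FHL2 had 6.10 ± 0.133 and 7.98 ± 0.709 FPKM and was not called (limma FDR = 0.0221).

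Neither member with a role in actin turnover was called. CFL1 (cofilin, which severs filaments) had 263 ± 11.0 and 290 ± 45.4 FPKM, and PFN1 (profilin, which loads monomers onto growing ends) had 989 ± 32.5 and 995 ± 174 FPKM. Groups overlapped for both. The sign of PFN1 changed with the scaling, from -0.01 on the log2 scale to 0.01 with median-ratio scaling.

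SRF had 10.7, 11.6 and 11.1 FPKM in Ctrl and 16.9, 17.1 and 16.5 FPKM in MIR21-KO, with little spread in either group. It was called higher with a log2 fold change of 0.59 ± 0.07 (SE, limma FDR = 0.00139), a call lost without Ctrl replicate 1 or 3 or MIR21-KO replicate 2. Members with a CArG box were found on both sides. Of the 10 tested members with a box, 5 were called higher, 1 lower and 4 not called, with a median log2 fold change of 0.45. Of the 23 tested members whose windows lack one, 8 were higher, 2 lower and 13 not called, with a median of 0.46. MYLK, FHL2, MYO1E and ACTG1 were the tested members with a box and no call. Outside the set, 121 tested genes had a box, of which 14.9% were called higher and 8.26% lower. Over all genes tested, these shares were 7.66% and 8.38%.

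Members with a match to the miR-21-5p seed were likewise called in both directions or not called. A match to the whole seed stood in the longest 3′ UTR of 5 of 36 members, compared with 9.88% of 11644 tested genes with a 3′ UTR. LIMA1 was called higher, PDLIM5, with the 8mer printed above and a further 7mer, was called lower, and VCL, CALD1 and MYO1E were not called. An 8mer occurred in 3 members and in 2.87% of all these genes. The shorter site of TPM1 described above was not counted here.

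Neighbouring genes of the pathway were read from lists of genes that are not members. Of 38 other stress fibre and adhesion genes, 32 were tested, and 6 were called higher and 3 lower, with a median log2 fold change of 0.17. Among those higher, TNS1 (tensin, an adhesion protein) went from 0.329 ± 0.0290 to 5.52 ± 1.136 FPKM, TGFB1I1 (the paxillin relative Hic-5) from 8.74 ± 0.178 to 27.0 ± 3.23 FPKM and PARVA (parvin) from 11.4 ± 0.920 to 20.4 ± 2.59 FPKM. TNS1 reached the minimum mean of 0.5 FPKM for testing through MIR21-KO only. ABLIM1, TNS3 and LASP1 were lower, with log2 fold changes of -1.27, -0.83 and -0.59. Of 30 genes of actin turnover and branching, 1 was higher (ARPC5, a subunit of the Arp2/3 complex) and 2 were lower (EZR and CAPZA1), with a median of 0.03. The share called in either direction was 28.1% for the stress fibre list, 10% for the turnover list and 16.0% for all genes tested. Of all genes tested, 7.66% were called higher and 8.38% lower. EZR encodes ezrin, which ties actin to the membrane of microvilli, and fell from 130.3 ± 2.22 to 70.2 ± 1.19 FPKM (limma FDR = 0.000283). Without any single Ctrl library or MIR21-KO replicate 2, stress fibre and adhesion genes called numbered 3 higher and 1 lower, and turnover genes 0 higher and 1 lower.

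Markers of other contractile cells were set beside these changes. Of 8 smooth muscle markers outside the set, only SYNM and SMTN reached 5 FPKM. Only 3 of the 8 were tested, namely SYNM, SMTN and MYOCD, and none of these was called. MYOCD, the smooth muscle coactivator of SRF, had 39, 12 and 42 reads in Ctrl and 95, 70 and 140 reads in MIR21-KO, without overlap, and missed the threshold (0.272 ± 0.127 to 0.882 ± 0.298 FPKM, log2 fold change 1.42, limma FDR = 0.0458). MYOCD reached the minimum mean of 0.5 FPKM through MIR21-KO only. The sum of all 8 was 17.0 to 18.4 FPKM in Ctrl and 15.2 to 18.6 FPKM in MIR21-KO. The defining genes MYH11, DES and LMOD1 were at most 0.0329 FPKM on average in either group. The 9 fibroblast markers summed to 7.74 to 8.43 FPKM in Ctrl and 14.1 to 14.3 FPKM in MIR21-KO. Of the 3 tested, only THY1 was called higher (2.28 ± 0.212 to 7.15 ± 1.16 FPKM, limma FDR = 0.00059). COL1A1 and LUM were not called, and their groups overlapped. COL1A1 averaged 3.41 FPKM in Ctrl and 3.91 FPKM in MIR21-KO (limma FDR = 0.334). LUM averaged 2.11 FPKM in Ctrl and 1.88 FPKM in MIR21-KO (limma FDR = 0.506). Of the 6 untested fibroblast markers, COL3A1 (5, 14 and 8 reads in Ctrl, 55, 45 and 56 in MIR21-KO), FAP (0 reads in each Ctrl library, 41, 40 and 55 in MIR21-KO) and PDGFRB (1, 3 and 2 reads, then 8, 9 and 15) were higher in every MIR21-KO library, all at low levels. DCN and PDGFRA overlapped between groups, and COL1A2 was listed at 0 in all libraries. Their part in the members' changes was not tested.

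Libraries of the MIR21-KO group differed among themselves by gene length. All 12 members with a length under 4000 bases had a lower value in MIR21-KO replicate 3 than in replicate 1 (median log2 ratio -0.34), and 12 of the 14 members of at least 8000 bases had a higher one (median 0.31). Across the 36 tested members the log2 ratio correlated with log2 length at Pearson's r = 0.80, as a description over genes that share the same libraries. The same correlation was 0.60 over 2031 genes with at least 1000 reads in every library, 0.35 over 7551 genes averaging 5 FPKM or more and 0.11 over all genes tested. The split by length was also seen in the 2031 well-covered genes, with a median of -0.38 for the 701 short and 0.24 for the 484 long ones. Between Ctrl replicates 3 and 1 the medians were 0.03 for short and -0.08 for long members. The correlation with log2 length over the 36 tested members was Pearson's r = -0.45 there, of opposite sign. The widest gaps were those of MYL6 (4609 bases) and TPM2 (4047 bases), lower in replicate 3, and of CALD1 (9843 bases) and MYLK (22167 bases), higher in replicate 3. When trends with GC content and length were removed from each library, all 18 calls remained, and ACTG1, MYL6, TAGLN2, VCL and CALD1 were called higher and MYLK and MYO1E lower in addition. Calls became more frequent in general in that fit. Over all 16006 genes tested, those called higher went from 1226 to 1646 and those called lower from 1342 to 2286.

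**Figure D4:**
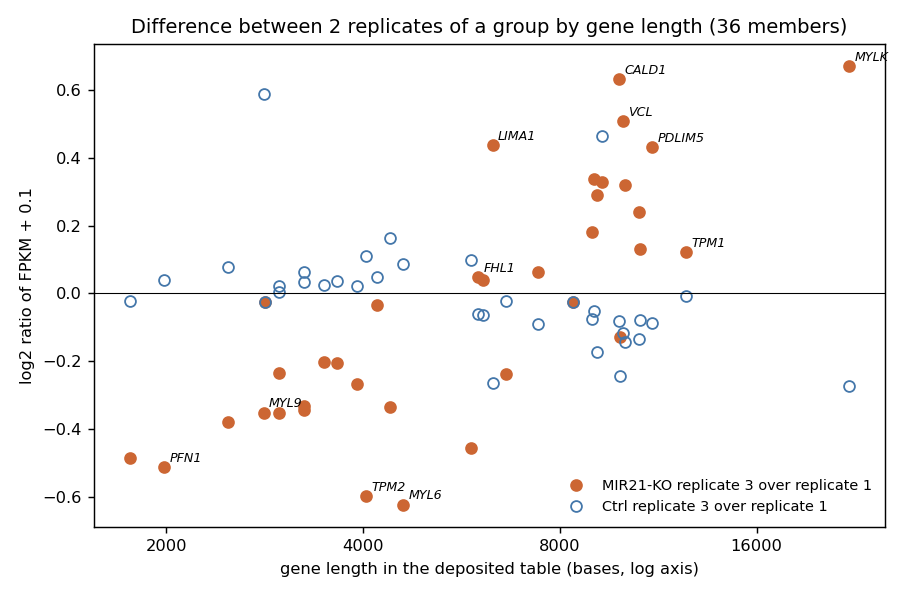
Log2 ratio of replicate 3 to replicate 1 within a group (y axis, FPKM + 0.1) against gene length (x axis, bases, log scale) for the 36 tested members, filled for MIR21-KO and open for Ctrl. Filled points climb from below 0 for short members to above 0 for long ones. Open points lean the other way (Pearson's r = -0.45 with log2 length).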

How the data were processed

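The authors deposited 1 table of FPKM values (fragments scaled to gene length and library size) for 58174 genes in 6 libraries, with gene lengths and, per the file headers, their own log2 fold changes and p-values, which were not used. The submitters' processing notes name cutadapt 1.14, HISAT2 2.1.0, SAMtools 1.5, featureCounts 1.5.3, edgeR 3.18.1 and hg38. Libraries are strand-specific per the labels. Groups and replicate numbers were taken from sample titles.

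Here, limma 3.58.1 (R 4.3.3) was applied to log2(FPKM + 0.1) of all genes averaging 0.5 FPKM or more (eBayes with trend and robust fitting, two-sided, no covariate). P-values were adjusted by Benjamini-Hochberg over all 16006 genes, with calls at an FDR under 0.01. FPKM values are whole multiples of 1 read's worth for 100% of values (tolerance 0.01 reads), so reads were recovered and tested with limma-voom and TMM factors as an alternative, without a negative binomial model. The procedure was also run on simulated data. There, all libraries shared a spread estimated on Ctrl and had no length trend, unlike the MIR21-KO libraries. The simulation therefore does not show how the fit behaves on these data. Figures were drawn with matplotlib 3.10.9.

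The members and all lists were chosen with earlier results of these data known. Named genes were all members, MIR21, VMP1, the 3 largest called rises and falls of each pathway list and markers reaching 5 FPKM; the remaining genes named were chosen after their values were seen. Same-numbered libraries did not deviate together (correlations of -0.171, -0.018 and -0.017), so no pairing was used. Results of 1 further pathway list are not reported here.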

Additional observations from a re-analysis of the deposited data

How the results depend on the processing

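Settings tried were other filters, a pseudocount of 1, median-ratio scaling, an FDR of 0.05, eBayes without trend or robust fitting, a replicate block, removal of GC content and length trends, voom on recovered reads and leaving out each library. Scaling by total reads was added after seeing the data. Over up to 17 alternatives per member, 491 results kept side and direction, 72 lost the call, 40 gained one and 4 changed sign. All 4 were PFN1, not called, with log2 fold changes of 0.013 (median-ratio scaling), 0.0093 (voom), 0.019 (without Ctrl replicate 2) and 0.137 (without MIR21-KO replicate 3), and a range of -0.12 to 0.137 with each library left out in turn.

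With each library left out in turn, genes called higher numbered 388 to 1599 and lower 368 to 1801, members higher 5 to 19 and lower 2 to 4, other stress fibre genes higher 3 to 8 and lower 1 to 4, and turnover genes higher 0 to 5 and lower 1 to 4. At an FDR under 0.05, there were 2428 genes higher and 2686 lower, 6 members lower, 11 stress fibre genes higher and 5 lower, and 6 turnover genes higher and 4 lower. A mean of at least 5 FPKM gave 765 genes higher, 1 member lower (FHL1 and MYH14 were no longer tested) and 2 turnover genes higher.

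The replicate block, with no pairing in the design, left 379 genes higher and 272 lower, 5 members higher, 2 stress fibre genes higher and 1 lower, and 0 turnover genes higher and 1 lower. Block and trend removal together gave 721 genes higher, 8 members higher, and 0 turnover genes higher and 1 lower. Trend removal alone gave 2286 genes lower, 5 members lower, 10 stress fibre genes higher and 6 lower, and 5 turnover genes higher. Voom called 4 turnover genes higher. Without trend or robust fitting, 0 turnover genes were higher and 1 lower. Turnover genes higher numbered 0 without a filter and 2 with median-ratio scaling. The cause of these moves was not tested.

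On recovered reads, the share of MYL9 differed by 7.56 percentage points instead of 6.54. The share of TPM1 differed by -0.13 points and turned to 0.062 without Ctrl replicate 1, 1.13 without MIR21-KO replicate 1 and 1.67 on recovered reads. With the replicates left out in turn, the difference was 6.36 to 6.75 points for MYL9 and -1.35 to 1.13 for TPM1. Depth limits ACTG2 and CNN1, at no more than 21 reads per library.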
